A study of Homo sapiens with 2 samples.

Results

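The regions described here are the LSD1 peaks that lay between protein-coding genes but close to one. LSD1 (KDM1A) was mapped by chromatin immunoprecipitation and sequencing (ChIP-seq) in PC-3M-luc cells, luciferase-marked prostate carcinoma cells of the PC-3M line. PC-3M is a metastatic derivative of PC-3, which grows without androgen. There was 1 LSD1 library, made with an Abcam antibody, and 1 input library of genomic DNA, both from cells at passages 17 to 20 in serum-supplemented EMEM. Both carry the genotype label "Control", and no other genotype or treatment is compared. A peak belonged to the set if its midpoint lay outside every protein-coding gene body, more than 1 kb and at most 50 kb from the nearest transcription start site (TSS) of a protein-coding transcript, and more than 1 kb from every lncRNA TSS. Of the 20110 peaks in the authors' list, 2642 met the rule (13.1%, interval 12.7 to 13.6). Each was assigned to the gene whose edge was nearest, which made 905 peaks upstream of a gene start and 1737 downstream of a gene end. Members occurred on 23 of 24 chromosomes. Intervals are 95% and cover counting error only. Neighbouring peaks are not independent, no value has a replicate check because each arm had 1 library, and the read depth behind the peaks is unknown.

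LSD1 is an enzyme that demethylates mono- and dimethylated lysine 4 of histone H3, marks of enhancers and promoters. It works with the scaffold protein CoREST, encoded by RCOR1, and with histone deacetylases, and it occupies both promoters and distal enhancers. AP-1, a dimer of JUN and FOS family proteins, is a transcription factor that binds many enhancers in epithelial and carcinoma cells. CTCF binds insulators and the anchors of chromatin loops. Sequence downstream of a gene end is where RNA polymerase II terminates after the transcript has been cleaved.

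The sequences below show elements that were compared between the flanks. The first 5 are high-scoring members with an AP-1 element within 100 bp of the midpoint, 3 from the upstream and 2 from the downstream flank, and none of the printed bases lies in a protein-coding gene body. Each is the plus strand of hg19 written 5′ to 3′, with the AP-1 element TGANTCA (N being C or G) in capitals and 50 bases on each side of it. In all 5 the capitals read TGAGTCA on this strand. Capitals mark only the first match in the window, and the TNFRSF12A sequence also holds TGACTCA, left in lower case.
FTH1 (chr11:61744753-61744859): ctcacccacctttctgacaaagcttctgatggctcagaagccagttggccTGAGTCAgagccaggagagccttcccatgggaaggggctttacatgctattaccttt
ALDH1A3 (chr15:101392230-101392336): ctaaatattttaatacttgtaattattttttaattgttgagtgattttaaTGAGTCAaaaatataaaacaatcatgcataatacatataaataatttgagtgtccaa
WNT7B (chr22:46403079-46403185): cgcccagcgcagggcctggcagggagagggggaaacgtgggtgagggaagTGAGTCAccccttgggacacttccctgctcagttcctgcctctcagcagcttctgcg
S100A6 (chr1:153506924-153507030): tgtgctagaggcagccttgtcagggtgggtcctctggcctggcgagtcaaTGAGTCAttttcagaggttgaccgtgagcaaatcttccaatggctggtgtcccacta
TNFRSF12A (chr16:3072389-3072495): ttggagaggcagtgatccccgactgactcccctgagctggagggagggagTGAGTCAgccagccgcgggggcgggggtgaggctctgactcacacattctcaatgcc

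The next 4 windows hold the core of a CTCF element, in capitals, again with 50 bases on each side. TCF3 and ACSM6 are upstream members, and MANF and ZNF778 are downstream members.
TCF3 (chr19:1672085-1672196): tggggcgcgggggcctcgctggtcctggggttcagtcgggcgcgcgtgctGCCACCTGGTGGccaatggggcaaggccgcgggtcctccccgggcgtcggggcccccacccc
ACSM6 (chr10:96943467-96943578): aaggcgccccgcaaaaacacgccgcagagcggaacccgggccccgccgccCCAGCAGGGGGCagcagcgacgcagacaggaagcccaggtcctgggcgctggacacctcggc
MANF (chr3:51426907-51427018): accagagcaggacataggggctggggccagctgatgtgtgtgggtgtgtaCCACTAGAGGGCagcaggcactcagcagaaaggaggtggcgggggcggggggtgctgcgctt
ZNF778 (chr16:89307323-89307434): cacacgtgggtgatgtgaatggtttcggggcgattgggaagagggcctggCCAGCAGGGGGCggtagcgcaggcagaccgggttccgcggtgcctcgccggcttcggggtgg

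Other members had CpG-island-like sequence more than 1 kb from the starts of protein-coding transcripts and lncRNAs. The 200 bp at the midpoint are printed for the window with the highest CpG observed-to-expected ratio on each flank, among windows over 55% GC in peaks at or above the list's median score. Every CpG is in capitals. The FKBP5 window, upstream, held 26 CpGs at 71.5% GC, and the NKAIN1 window, downstream, held 28 at 80.0% GC. NKAIN1 was chosen by this ranking after its values were seen.
FKBP5 (chr6:35699664-35699863): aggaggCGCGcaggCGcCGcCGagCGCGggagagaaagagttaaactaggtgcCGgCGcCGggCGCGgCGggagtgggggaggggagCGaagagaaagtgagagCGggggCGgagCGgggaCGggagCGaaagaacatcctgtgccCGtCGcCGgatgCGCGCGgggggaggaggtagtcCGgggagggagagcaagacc
NKAIN1 (chr1:31627823-31628022): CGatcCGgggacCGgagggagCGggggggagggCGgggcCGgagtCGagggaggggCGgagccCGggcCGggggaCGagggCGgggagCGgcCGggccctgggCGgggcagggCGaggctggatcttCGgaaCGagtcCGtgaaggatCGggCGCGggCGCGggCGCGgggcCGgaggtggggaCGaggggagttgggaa

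Downstream flanks held more LSD1 peaks than upstream flanks, both in number and per length of sequence. The sequence that met the same rule, counted base by base, was 285 Mb on the start side and 159 Mb on the end side. Upstream members occurred at 3.17 per Mb (2.97 to 3.39) and downstream members at 10.9 per Mb (10.4 to 11.4), a 3.44-fold difference (3.17 to 3.73). The distance rule removes nearly all of the first kb before a start, where 12 members lay in 0.535 Mb, but not the first kb past an end, where 566 lay. Beyond 1 kb of the edge the densities were 3.14 and 7.92 per Mb. Assigning each peak to the gene of its nearest TSS instead of its nearest edge turned the upstream share from 34.3% to 53.4%, while the upstream density stayed the lower, at 0.426 of the downstream density. The nearest edge and the nearest TSS belonged to the same gene for 99.1% of upstream and 59.8% of downstream members.

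The excess past gene ends was seen in the first 10 kb. Density was 49.5 per Mb in the first kb past a gene end, 40.6 at 1 to 2 kb, 14.2 at 2 to 5 kb and 6.06 at 5 to 10 kb. Before gene starts it was 9.19 at 1 to 2 kb, 5.23 at 2 to 5 kb and 3.82 at 5 to 10 kb. The downstream density was therefore 4.42-fold the upstream density at 1 to 2 kb (3.58 to 5.50), 2.71-fold at 2 to 5 kb (2.25 to 3.26) and 1.59-fold at 5 to 10 kb (1.29 to 1.96). At 10 to 20 kb the densities were 2.61 upstream and 2.98 downstream, a downstream-to-upstream ratio of 1.14 (0.900 to 1.45). At 20 to 50 kb they were 2.01 and 2.12, a ratio of 1.05 (0.816 to 1.35). A difference between the flanks was thus not detectable beyond 10 kb, where the interval still allows a downstream density up to 1.45 times the upstream one.

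**Figure D1:**
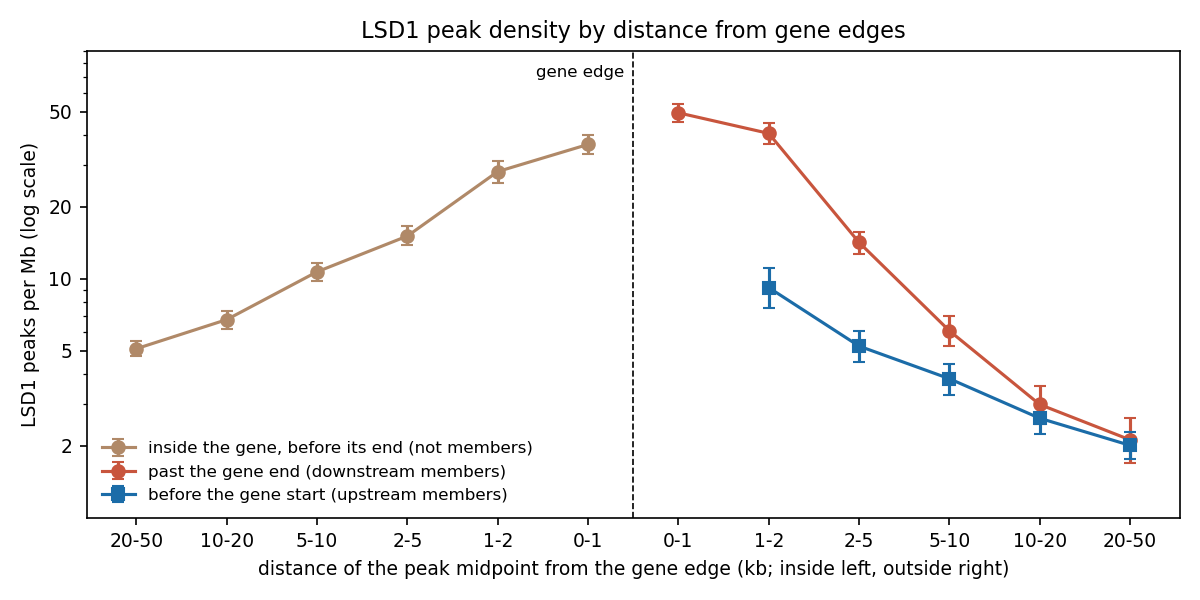
Peaks per Mb (log scale) by distance of the midpoint from the gene edge, for upstream members (blue), downstream members (red) and peaks inside the same genes before their end (brown); bars are exact 95% Poisson intervals. Density rose toward the gene end on both sides of it, peaked at 49.5 per Mb in the first kb past the end, and met the upstream curve beyond 10 kb; the first kb before gene starts is left out because the rule removes nearly all of it.

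The rise did not begin at the gene end but inside the gene. Within the bodies of the genes that had qualifying end sequence, again leaving out 1 kb around every protein-coding TSS but not around lncRNA starts, density was 5.10 per Mb at 20 to 50 kb before the end and 10.7 at 5 to 10 kb. It was 28.1 at 1 to 2 kb and 36.5 in the last kb (33.2 to 40.0). The first kb past the end, at 49.5 (45.5 to 53.7), was denser than the last kb before it. Downstream members sat close to the end, at a median of 1615 bp (1517 to 1776), whereas upstream members sat at a median of 9083 bp from the start (8203 to 10181). Of the downstream members, 77.3% lay within 5 kb of the gene end and 11.9% beyond 10 kb. Of the upstream members, 33.1% lay within 5 kb of the start and 47.4% beyond 10 kb.

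The orientation of the neighbouring genes showed the same difference. Between 2 gene starts members occurred at 3.21 per Mb, between a start and an end at 6.11, and between 2 ends at 11.9, which was 3.69-fold the density between 2 starts (3.28 to 4.15). In the intervals between a start and an end, the start side had 3.14 and the end side 10.4 per Mb, a 3.30-fold difference (2.94 to 3.70).

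A promoter peak at the gene went with members on both flanks, and far more strongly past its end. A gene counted as having a promoter peak when another peak of the list had its midpoint within 1 kb of one of its TSSs, which held for 52.2% of all protein-coding genes. A gene whose start lay only under a peak centred farther away counted as having none. RCOR1 and RPL10A, described below, are examples, and how many genes this concerns was not counted. Upstream density was 4.26 per Mb beside genes with a promoter peak and 2.18 beside genes without one, a 1.95-fold difference (1.70 to 2.24). Downstream density was 19.8 and 3.96, a 5.01-fold difference (4.45 to 5.64). The downstream ratio was 2.56 times the upstream ratio (2.14 to 3.07).

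This contrast between the flanks was found near the gene edge and was not detectable beyond 5 kb. At 1 to 5 kb the ratio was 1.64 upstream (1.29 to 2.09) and 6.45 downstream (5.29 to 7.93), so the downstream ratio was 3.93 times the upstream one (2.89 to 5.35). Beyond 5 kb it was 2.17 upstream (1.83 to 2.58) and 2.29 downstream (1.86 to 2.83), and their quotient was 1.06 (0.811 to 1.38). In the first kb past the end, density reached 83.9 per Mb for genes with a promoter peak (76.5 to 91.8) and 15.7 for genes without (12.7 to 19.3). At 1 to 2 kb it was 10.0 and 8.46 before the start, and 74.6 and 9.20 past the end. Promoter peaks had a median width of 1828 bp and can themselves cover sequence at 1 to 2 kb before the start. The part of this in the contrast, and in the densities before starts, was not tested. Counted by peaks, the nearest gene had a promoter peak for 63.9% of upstream and 79.6% of downstream members, a difference of -15.7 points (-19.4 to -12.1). Beyond 5 kb the shares were 66.3% and 62.5%, a difference of 3.75 points (-2.28 to 9.84). No expression data were analysed here, so whether these genes were transcribed was not tested.

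**Figure D2:**
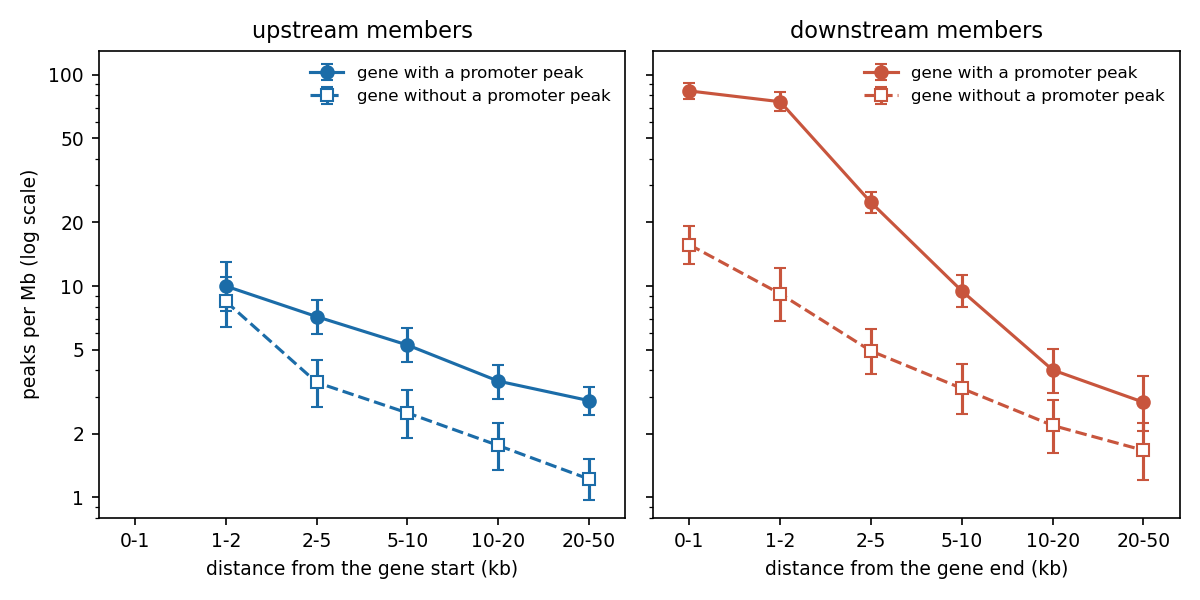
Peaks per Mb (log scale) by distance from the gene start (left) and the gene end (right), for genes with a promoter peak (filled circles) and without one (open squares); bars are exact 95% Poisson intervals. The curves lie far apart just past gene ends, at 83.9 against 15.7 per Mb in the first kb, and much closer at 20 to 50 kb on either side.

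The median length of the genes with members lay within counting error of that of all eligible genes. The median length was 28330 bp for the 706 genes with an upstream member (25326 to 32032), which are 3.50 percent of protein-coding genes, and 30200 bp for the 13477 genes with qualifying start sequence. It was 22798 bp for the 1457 genes with a downstream member (20607 to 24265), which are 7.23 percent of protein-coding genes, and 24126 bp for the 13356 genes with qualifying end sequence.

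Member peaks were weaker and narrower than promoter peaks. Scores here are the authors' own value for each peak, carry no stated unit and serve only to rank and describe peaks of this list. The median score was 103.81 upstream (95.35 to 111.98) and 125.45 downstream (119 to 132.25), against 94.7 for the 761 remote intergenic peaks more than 50 kb from a TSS, 95.02 for gene body peaks and 389.06 for promoter peaks. At or above the list's median score of 205.87 were 28.1% of upstream and 31.8% of downstream members, a difference of -3.77 points (-7.37 to -0.0676). This difference changed sign, to 0.843 points (-4.62 to 6.26), among peaks with a score of at least 100, and to 3.03 (-0.688 to 6.82) when the whole peak had to lie outside genes and promoter windows, so no order of the flanks by score is drawn. Beside remote peaks, of which 20.2% reached the median score, the share was 7.83 points higher upstream (3.71 to 11.9) and 11.6 points higher downstream (7.91 to 15.1). Median width was 1273 bp upstream, 1468 bp downstream and 1828 bp at promoters.

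**Figure D3:**
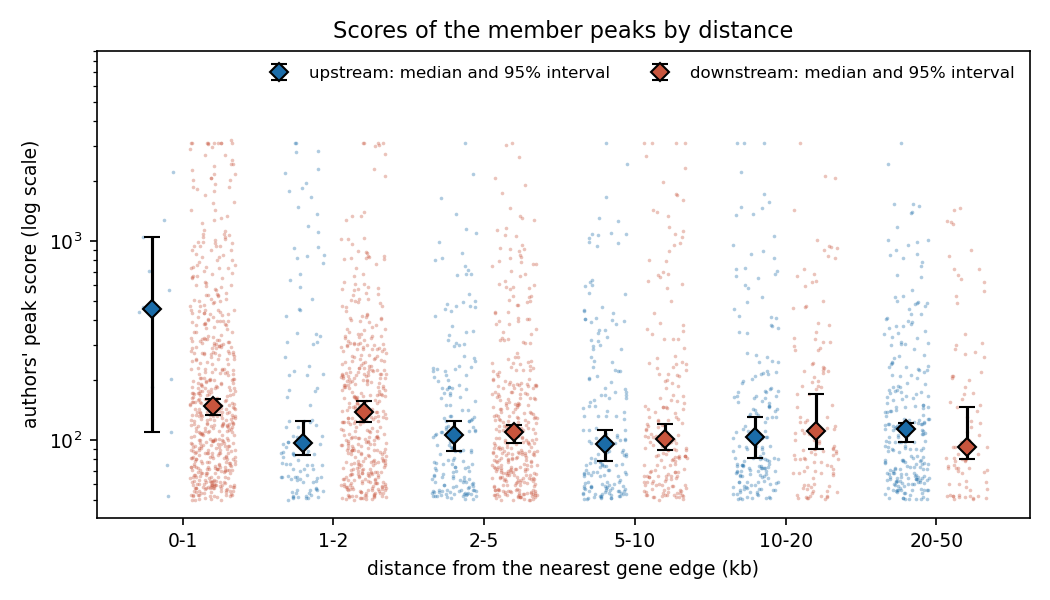
The authors' score of each member (points, log scale) by distance from the nearest gene edge, with the median and its 95% order-statistic interval (diamonds and bars). Downstream medians were highest in the first 2 kb past the end, at 148.38 and 138.01, the flanks overlapped widely at every distance, and the upstream median in the first kb (452.16) rests on 12 peaks.

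The label "intergenic" rests on midpoints, and many members reached further. Part of the peak touched a gene body or came within 1 kb of a protein-coding TSS for 8.73% of upstream and 30.5% of downstream members. In the first kb past gene ends this held for 73.5%. With such peaks left out, 826 upstream and 1207 downstream members remained and the upstream density was 0.382 of the downstream density (0.349 to 0.418). Here the length of sequence was kept at 285 and 159 Mb and not reduced to places where a whole peak fits.

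The highest-scoring upstream members were of unlike kinds. The 8 leading ones had the score of 3100 that 206 peaks of the list share, so they have no order among themselves. At RCOR1, which encodes CoREST, a 5760 bp peak (chr14:103054804-103060563) covered the gene start, with its midpoint 1302 bp before it. The peaks at CDCA4, a cell-cycle-associated gene (chr14:105483819-105495643), and at TNRC18, a chromatin protein gene (chr7:5462806-5470333), also touched a gene or promoter window, with midpoints 2311 and 1525 bp before the start. The SIRT4 member (chr12:120728422-120731484), 10166 bp before that mitochondrial sirtuin gene, covered RNU4-1 and RNU4-2, which encode the U4 spliceosomal RNA. Members also lay 15224 bp before DYNC1H1, the dynein heavy chain gene (chr14:102413372-102418000), 11180 bp before LBHD2 (chr14:103535903-103542831) and 6670 bp before the olfactory receptor gene OR6J1 (chr14:23119127-23121334).

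Of these 8 upstream peaks, 5, at RCOR1, CDCA4, LBHD2, DYNC1H1 and OR6J1, were on chromosome 14. All of them but that at OR6J1 lay between positions 102413372 and 105495643, a stretch whose own density was not computed. The remark was made after the values were seen. Members on chromosome 14 had a density of 9.02 per Mb (7.44 to 10.8), against 5.94 for all members, and a median score of 118.46, against 117.87 for all members. The copy number of this chromosome in the cells was not measured here, and its part in the scores was not tested.

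Downstream, 20 members had a score of at least 3100. All but 1 of them share the score of 3100, so apart from the first those named here were taken from the ties by width, and their width and place are not those of high scores in general. The highest score of the set, 3191.8, was at RPL10A, a ribosomal protein gene, where a 7663 bp peak (chr6:35435241-35442903) had its midpoint 510 bp past the end and spanned the gene. The member with the greatest width, 36238 bp (chr11:65180957-65217194), was assigned to the end of FRMD8, 18080 bp away, and covered NEAT1, the lncRNA gene of nuclear paraspeckles. At TPT1, which encodes the translationally controlled tumour protein, a peak (chr13:45903461-45911424) centred 163 bp past the end covered the small nucleolar RNA gene SNORA31. The member at TRIB3, a stress-response pseudokinase gene (chr20:374813-383203), was centred 805 bp past its end, and that at PYCR1, a proline synthesis gene (chr17:79883990-79894224), 1153 bp past its end. Others were at ARHGDIA (chr17:79816052-79831447), COMTD1 (chr10:76987798-76997269) and LRRC8E, a volume-regulated anion channel gene (chr19:7962201-7971655). All the peaks named in this paragraph touched a gene body or promoter window. Those at ARHGDIA and COMTD1 also covered a TSS of their own gene, 4132 and 3149 bp from the midpoint. Neither of these genes counted as having a promoter peak.

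Small RNA genes lay under 41 members (1.55%, 1.12 to 2.10). They were under 12 of the 160 members with a score of at least 1000 (7.50%, 3.94 to 12.7). Overlap was taken over the whole peak, and a wide peak covers more sequence. Of these, the LRRC8E and TPT1 peaks were 9455 and 7964 bp wide, against a median of 1398 bp for all members. The part of width in the share was not tested. Small RNA genes are short, highly transcribed and often present in near-identical copies, and how reads mapping to several copies were treated is not given in the sources used here. Pseudogenes lay under 107 members (4.05%). Members within lncRNA gene bodies were 25.4% of the upstream and 12.3% of the downstream peaks. Per length of sequence, upstream density was 3.60 per Mb inside lncRNA bodies and 3.05 outside, and downstream density was 7.88 inside and 11.5 outside.

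At the edges of the rule, the upstream members nearest to the 50 kb limit were at SLC4A7, a bicarbonate cotransporter gene (49955 bp) and KRBA1 (49922 bp). The nearest peaks beyond it were at TEX44 (50081 bp), EID3 (50163 bp) and LIF, which encodes a cytokine (50176 bp). The downstream members nearest to the limit, which is measured from the TSS, were at DHX9 (49912 bp), FBXO38 (49628 bp) and TENM4 (49350 bp). Just beyond 1 kb from a TSS lay the members at SKI, a repressor of TGF-beta signalling (1003 bp), USP42 (1010 bp) and MAPK8IP3 (1017 bp) upstream, and at the histone genes H1-3 (1043 bp) and H2BC12 (1052 bp) and at STIP1 (1087 bp) downstream.

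AP-1 elements were more frequent under upstream members than under downstream members. TGANTCA, searched on both strands in the 200 bp at the midpoint, occurred in 106 of 905 upstream windows (11.7%, 9.69 to 14.0) and in 93 of 1737 downstream windows (5.35%, 4.34 to 6.52). The difference was 6.36 points (4.10 to 8.81). All 200 bp tiles of the qualifying sequence held it at 3.18% on the start side and 3.14% on the end side. Windows 5 kb from the members held it at 3.04% and 3.17%. The share upstream was that of remote peaks (11.7%, difference 0.0176 points, -3.13 to 3.10), and gene body peaks (6.34%) and promoter peaks (1.71%) had lower shares. The FTH1, ALDH1A3 and WNT7B sequences printed above are upstream examples. FTH1 encodes ferritin heavy chain, ALDH1A3 a retinaldehyde dehydrogenase and WNT7B a secreted Wnt ligand, and their windows lay 9727, 25696 and 30145 bp before the gene start.

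The elements were concentrated at the midpoints upstream, whereas downstream the midpoint share did not exceed that of the windows 200 bp away. Upstream, the share was 11.7% at the midpoint, 9.50% and 8.18% in the windows 200 bp to either side, and 2.21% and 3.54% at 1000 bp. Downstream it was 5.35% at the midpoint, 5.81% and 5.47% at 200 bp and 3.22% and 3.17% at 1000 bp. In each GC class the upstream share exceeded that of tiles of the same class. Windows under 45% GC had 10.3% against 2.98% in tiles, those of 45 to 55% had 13.8% against 3.66%, and those over 55% had 10.4% against 2.79%. Downstream the shares in these classes were 4.48%, 5.87% and 5.29%, against 2.91%, 3.63% and 2.72% in tiles.

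**Figure D4:**
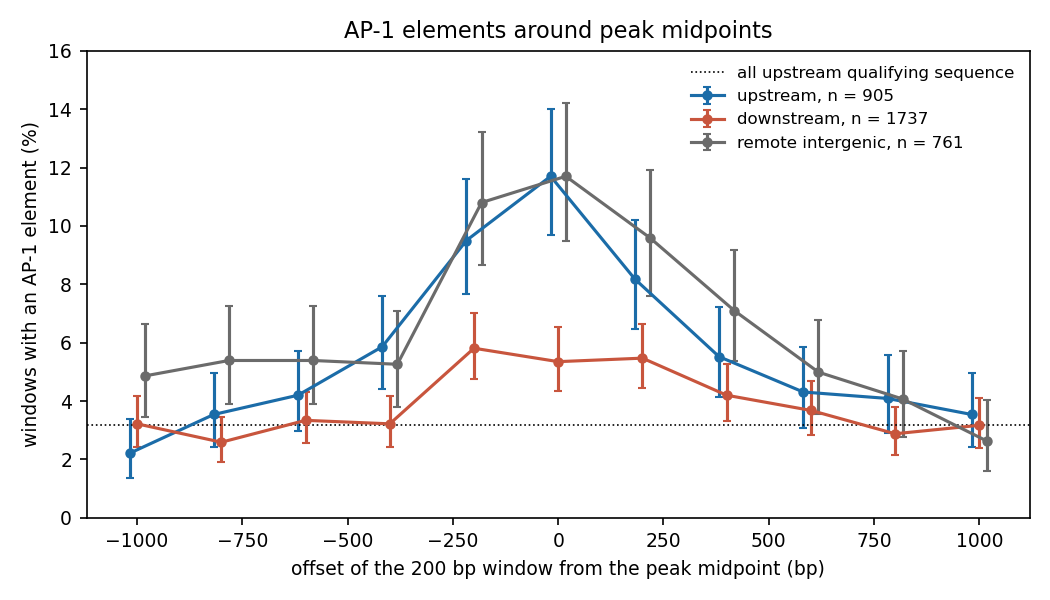
Share of 200 bp windows with an AP-1 element by offset from the peak midpoint, for upstream members (blue), downstream members (red) and remote intergenic peaks (grey), with exact 95% binomial intervals; the dotted line is the share in all qualifying sequence on the start side, 3.18%. Upstream and remote peaks reach 11.7% at the midpoint and downstream members 5.35%; points are shifted slightly sideways so that bars can be seen.

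Distance from the gene end separated the downstream members. The share was 4.24% in the first kb past the end, 3.87% at 1 to 5 kb, 7.45% at 5 to 10 kb and 12.1% beyond 10 kb (7.97 to 17.3). Upstream it was 10.8% at 1 to 5 kb, 11.4% at 5 to 10 kb and 12.8% beyond 10 kb (9.81 to 16.4). Beyond 5 kb, 12.4% of upstream and 9.87% of downstream members held an element, a difference of 2.52 points (-1.58 to 6.37). Downstream members beyond 5 kb exceeded those within 5 kb by 5.85 points (3.02 to 9.32). Elements were also more frequent in upstream members below the list's median score (13.5%) than in those at or above it (7.09%), and among members at or above it the difference between the flanks was 2.57 points (-0.723 to 6.66).

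Over all distances, the promoter state of the gene went with AP-1 in opposite directions on the 2 flanks. Upstream, 14.4% of members beside a gene with a promoter peak and 7.03% of those beside a gene without one held an element, a difference of 7.33 points (3.11 to 11.2). Downstream the shares were 4.34% and 9.30%, a difference of -4.95 points (-8.55 to -2.09). The differences themselves differed by 12.3 points (7.18 to 17.6). Beyond 5 kb the upstream difference was 6.13 points (0.576 to 11.0) and the downstream difference -6.90 points (-13.9 to -0.757), which differed by 13.0 points (4.75 to 21.6). Within 5 kb, where most downstream members lay, the upstream difference was 9.25 points (2.33 to 15.7), but a downstream difference was not detectable, with 3.70% and 5.80% holding an element (-2.10 points, -6.27 to 0.660). This split was examined after the data were seen.

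Downstream members with the highest scores and an AP-1 element were at RPL10A, at S100A6, a calcium-binding protein gene, and at TNFRSF12A, which encodes the TWEAK receptor. The S100A6 peak (chr1:153503959-153509934, score 3100) was centred 128 bp past the gene end and the TNFRSF12A peak (chr16:3069905-3074941, score 3100) 39 bp past it. Both peaks reached into the gene and over a TSS 1520 bp from the midpoint, that of S100A6 itself and, at TNFRSF12A, that of HCFC1R1. Neither S100A6 nor TNFRSF12A counted as having a promoter peak.

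CTCF elements were rare on both flanks but above the surrounding sequence. They occurred in 8 upstream windows (0.884%, 0.382 to 1.73) and 14 downstream windows (0.806%, 0.441 to 1.35), a difference of 0.0780 points (-0.618 to 0.989). With the flank taken from the nearest TSS the difference was 0.799 points (0.0941 to 1.55). Tiles held 0.0948% and 0.129%, and the windows 5 kb away held 0 of 1810 upstream, which allows a share of up to 0.204%, and 7 of 3474 downstream. In windows over 55% GC the shares were 1.69% and 1.71%, against 0.415% and 0.465% in tiles of that class. TCF3 encodes an E-box-binding factor, MANF a secreted neurotrophic factor of the endoplasmic reticulum and ZNF778 a zinc finger protein. The remaining members named by score were at ZNF678, a zinc finger gene, 20834 bp before its start, and at MRPS2, a mitochondrial ribosomal protein gene, 220 bp past its end.

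Besides AP-1 and CTCF, 14 elements were searched, each on both strands and independently of overlap with the others, and are given by name only. ETS elements occurred in 1.66% of upstream and 0.921% of downstream windows, and SP/KLF elements in 3.43% and 2.25%, which were 8.09-, 3.93-, 10.3- and 5.56-fold the share in tiles. GATA elements occurred in 8.29% and 7.08%, 0.597- and 0.545-fold the tiles, and FOXA elements in 3.87% and 3.80%, 0.601- and 0.634-fold. TEAD, RUNX and C/EBP elements lay between 0.853- and 1.04-fold of the tiles on both flanks. Androgen response elements were found in 2 upstream windows and 0 downstream windows. The members' windows had a median GC of 53% upstream and 51.5% downstream, against 42% and 43% in tiles, and the folds were smaller or nearer to 1 in most comparisons with tiles of the same GC class. Upstream, SP/KLF elements were 3.63-fold the tiles at 45 to 55% GC and 3.29-fold over 55%, and ETS elements 2.02- and 5.04-fold. Downstream over 55% GC the folds were 2.50 for SP/KLF and 2.14 for ETS. GATA elements upstream were 0.967-, 1.22- and 0.884-fold the tiles under 45%, at 45 to 55% and over 55% GC, and 0.675-, 1.05- and 1.07-fold downstream. FOXA elements were 1.27-, 0.808- and 0.647-fold upstream and 0.944-, 1.07- and 1.10-fold downstream. Of these GATA and FOXA shares by class, the one below its tiles by more than counting error was that of GATA downstream under 45% GC (12.4%, 9.37 to 16.1, against 18.4%).

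GC content itself differed between the flanks close to genes. Windows over 55% GC made up 39.2% of upstream and 33.7% of downstream members. The share was 26.4% for remote, 43.4% for gene body and 85.9% for promoter peaks. Between the flanks the difference was 5.49 points (1.63 to 9.38). The interval included 0 with the flank from the nearest TSS (2.96 points, -0.704 to 6.60), with a limit of 20 kb (4.28, -0.319 to 8.92) and at or above the median score (6.72, -0.657 to 14.1). At 1 to 5 kb the difference was 11.0 points (4.58 to 17.6), and beyond 5 kb it was -1.05 points (-7.22 to 5.06). CpG-rich windows, over 55% GC with a CpG observed-to-expected ratio over 0.65, made up 12.0% of upstream (9.99 to 14.3) and 5.58% of downstream members (4.55 to 6.77). FKBP5, which encodes an immunophilin induced by steroid hormone receptors, is the upstream example printed above, 3404 bp before the start.

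Most members had another LSD1 peak nearby. Within 0.25 of the 50 kb limit, midpoint to midpoint, 65.9% of upstream and 67.1% of downstream members had a neighbour, a difference of -1.21 points (-5.04 to 2.55). The share was 42.4% for remote, 39.1% for promoter and 74.7% for gene body peaks, so gene body peaks exceeded both flanks. At 1 to 5 kb from the gene edge the upstream and downstream shares were 81.2% and 67.5%, a difference of 13.7 points (lower bound 7.86). Beyond 5 kb they were 58.7% and 58.0%, a difference of 0.703 points (-5.50 to 6.96). The neighbours were of different kinds. A gene body peak lay within this distance of 13.7% of upstream (11.5 to 16.1) and 27.1% of downstream members (25.0 to 29.3), and a promoter peak within it of 36.0% and 31.8%. For 34.1% and 32.9% there was no other peak within it. Within 5 kb, 39.1% of upstream and 43.6% of downstream members had a neighbour, a difference of -4.52 points (-8.43 to -0.557).

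By chromosome, member density was 13.7 per Mb on chromosome 19 (11.9 to 15.7). Chromosome 17 came next, with 207 members in 16.6 Mb (10.8 to 14.3 per Mb), and the density was 11.6 on chromosome 22 and 11.4 on chromosome 16. It was 2.26 on chromosome 13 and 1.93 on chromosome X. Chromosome Y had 0 members in 2.46 Mb of qualifying sequence, which allows up to 1.50 per Mb.

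Members were spread over many genes. A member was nearest to the start of 706 of 20163 protein-coding genes, and 3.50 percent of these genes were so marked. It was nearest to the end of 1457 genes, or 7.23 percent. Together 2038 genes had a member, of which 79.8% had exactly 1 and 125 had members on both flanks.

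RCOR1 had the most members, 8, with 4 on each flank. Upstream, the score was 3100 for the peak over the start and 86.96, 146.54 and 159.67 for members 7389, 32243 and 34597 bp before it. Downstream, the scores were 100.39, 96.09, 106.63 and 63.36 at 1554, 4785, 7129 and 8938 bp past the end, of which the peak at 7129 bp held an AP-1 element. The 7 other peaks all scored below the list's median of 205.87. A further 6 genes had 6 members each. At FTH1 all 6 were upstream, between 4898 and 45596 bp before the start, with scores from 66.0 to 1659.73. At PTMA, which encodes prothymosin alpha, 5 were upstream and 1, with a score of 3060.29, was 933 bp past the end. At PPARA, a nuclear receptor of fatty acid catabolism, all 6 were upstream in MIRLET7BHG, the host gene of let-7 microRNAs, and the highest-scoring one (1537.87) covered MIRLET7A3 and MIRLET7B. At IFNE, an epithelial interferon gene, all 6 lay in MIR31HG, the host gene of miR-31, with scores from 53.87 to 205.55. HPCAL1, a neuronal calcium sensor gene, and TRIM27, a ubiquitin ligase gene, each had 4 upstream and 2 downstream.

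Of the gene lists examined, immediate early genes had members most often. These genes, which growth factors and stress induce within minutes, include the JUN and FOS families. Of the 20 listed, 5 had an upstream member (25.0%, against 3.50 percent of all genes) and 8 a downstream member (40.0%, against 7.23 percent). These 20 genes had 0.526 Mb of qualifying start sequence and 0.397 Mb of end sequence. All 20163 genes had 285 and 159 Mb, which is less per gene, and its part in the shares was not tested. Among genes with qualifying sequence on the flank, 5.24% had an upstream and 10.9% a downstream member. IER2 had a downstream member with a score of 3100, 8361 bp past the end. JUN had an upstream member scored 745.8, 31779 bp before the start, and IER3 one scored 744.7, 4799 bp before the start. DUSP5, a phosphatase gene of ERK feedback, had 5 members with scores from 51.46 to 373.07. The genes of a list were picked with earlier results of these data known, and these counts are descriptions.

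Hypoxia and glycolysis genes had an upstream member at 5 of 20 genes (25.0%, against 3.50 percent of all genes). They had a downstream member at 4 of 20 (20.0%, against 7.23 percent). LDHA, the lactate dehydrogenase A gene, had a member scored 565.46 centred 50 bp past its end and one scored 140.93 upstream. ALDOA, the aldolase A gene, had one scored 589.27 centred 352 bp past its end, and VEGFA, the angiogenic growth factor gene, one scored 495.29 centred 602 bp past its end. In the TGF-beta and Hippo list the counts were 3 and 4 of 20. ID3, an inhibitor of helix-loop-helix factors, had a member scored 1081.69 past its end, and SKI and SMAD7, both inhibitors of the pathway, had upstream members scored 708.77 and 301.8.

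Among prostate luminal and androgen response genes, 3 of 20 had an upstream and 2 a downstream member. FOXA1, the pioneer factor of the androgen receptor, had a member scored 3100 centred 5018 bp past its end (chr14:38051452-38056026). HOXB13, a prostate homeobox gene, had one scored 548.85 centred 5737 bp before its start, and FKBP5 one scored 354.25. In the LSD1 complex list, RCOR1 and ZNF217, a CoREST-associated zinc finger gene, were the 2 of 23 genes with members. Both had members on each flank, so the share was 8.70% on either, against 3.50 percent upstream and 7.23 percent downstream. ZNF217 had 3, the highest scored 520.87 and 13025 bp before its start. The focal adhesion list had 3 of 24 upstream and 1 of 24 downstream. ITGA3, an integrin subunit gene, had 2 upstream members, scored 1401.09 and 358.38, and ZYX, the zyxin gene, 1 scored 110.3. ITGB5, another integrin gene, had the downstream one, scored 92.54.

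The remaining lists had members at few genes. Of 28 genes of epithelial-mesenchymal transition and invasion, 1 had an upstream member (3.57%, against 3.50 percent of all genes) and 2 a downstream member (7.14%, against 7.23 percent), which are shares close to those of all genes. Among them were VIM, the vimentin gene, with a peak scored 686.62 centred 925 bp past its end, and OVOL1, an epithelial repressor gene, scored 229.5. Of 25 cell cycle genes, 0 had an upstream member and 1, AURKB, a mitotic kinase gene, had a downstream member, scored 201.5. Of 22 developmental transcription factor genes, 0 had an upstream member, against 3.50 percent of all genes. Downstream members lay at 2, TBX2 and HOXA9 (9.09%, against 7.23 percent). Their highest scores were 169.39 and 51.37.

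**Figure D5:**
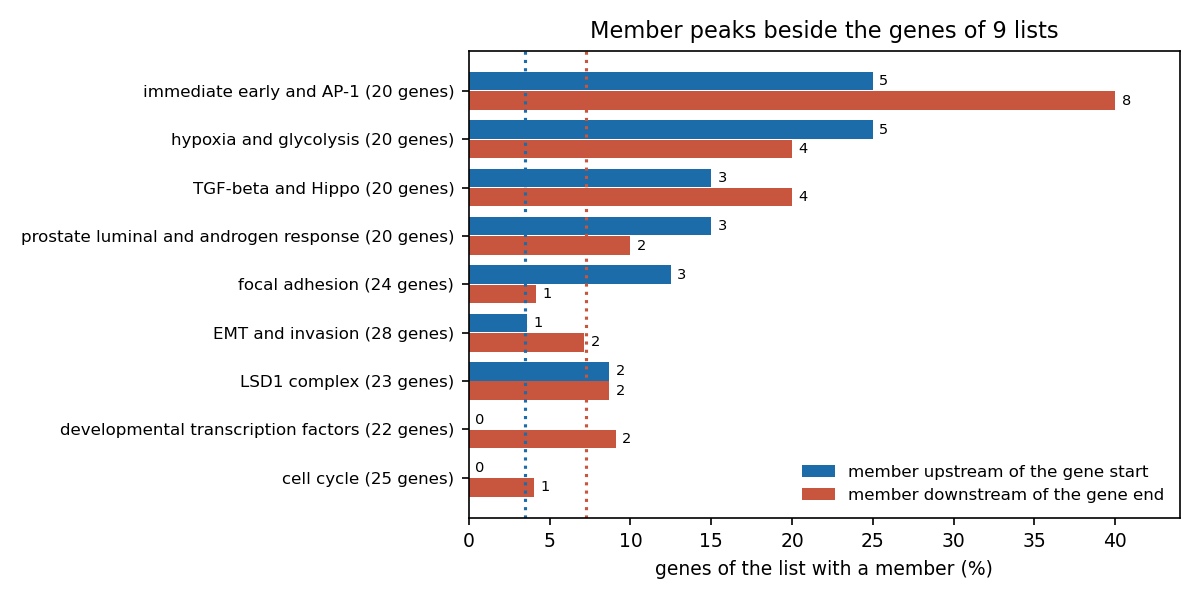
Share of the genes of each list with a member upstream of the start (blue bars) or downstream of the end (red bars), with the number of genes at each bar; dotted lines are the shares over all protein-coding genes, 3.50 percent and 7.23 percent. The immediate early list has the most genes with members, 5 and 8 of 20, and the cell cycle list the fewest, 0 and 1 of 25.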

How the data were processed

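LSD1 ChIP DNA and input DNA from PC-3M-luc cells, 1 library each, were read on an Illumina HiSeq, and bowtie 2 placed the reads on hg19, per the labels' protocols. The submitters' processing notes name Bowtie2, MACS 1.41, hg19 and a mouse build, mm10, that was not used for these human cells. No peak ran past a GRCh37 chromosome end. Settings, duplicate handling and read numbers are not given in the sources used here. No label states outright that the peaks were called against the input, which was assumed from the sample titles. The authors deposited 1 peak list with a score per peak. It runs from 50 to 3226.07 and was read from its values as the peak caller's scaled log10 p, which no label states, so it only ranks and describes peaks.

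Genes and transcripts came from GENCODE 44 lifted to GRCh37, and sequence from GRCh37. Qualifying sequence excluded assembly gaps and was classed base by base with the same code as the peaks. Coordinates are 1-based. A peak's flank is that of the nearest protein-coding gene edge. Density intervals are exact Poisson, shares Clopper-Pearson, differences of shares Newcombe, ratios of densities exact conditional, quotients of such ratios log-normal, and medians from order statistics. With 1 library per arm no p-value was computed. The code was tested on simulated data. The members, the gene lists and the elements were chosen with earlier results of these data known.

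Named are the 8 highest-scoring members per flank (ties by width), the 3 highest-scoring per flank with an AP-1 and with a CTCF element, the genes with the most members, up to 3 genes per list, and the members at the limits of the rule. Other genes are named after their values were seen. Some items that this rule selects are not reported here. The tools were scipy 1.17.1, pandas 2.3.3, numpy 2.4.6 and matplotlib 3.10.9 under Python 3.11.15.

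Alternatives were higher scores, removal of the widest 1%, a limit of 20 kb, the flank taken from the nearest TSS, whole peaks, lncRNA starts ignored, 1 member per interval, windows of 400 bp and neighbours within 5 kb.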

Additional observations from a re-analysis of the deposited data

How the results depend on the processing

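Of 83 alternative values for 8 results, 73 kept the direction of the reported value. In size, 55 stayed within its counting error and 25 moved beyond it, and 3 turned a difference or share whose interval had excluded equality. The upstream density was the lower in every alternative run, at 0.291 of the downstream density as reported. It was 0.252 with 1 member per intergenic interval, 0.216 with a limit of 20 kb, 0.257 at or above the median score, 0.253 with a score of at least 100, 0.322 with lncRNA starts ignored, 0.382 with whole peaks outside and 0.426 with the flank from the nearest TSS. For whole peaks the length of sequence was not reduced to match. The alternatives chosen after seeing the data gave 0.396 beyond 1 kb of the gene edge and 0.322 with the TSSs of all transcripts. The upstream share of members, 34.3%, became 53.4% with the flank from the nearest TSS, and 31.1% with 1 member per interval, 31.5% at or above the median score, 31.1% with a score of at least 100, 36.4% with lncRNA starts ignored, 40.6% with whole peaks outside and 43.3% beyond 1 kb. The difference in score share, -3.77 points, became 0.843 with a score of at least 100 and 3.03 with whole peaks outside. The difference in AP-1 share, 6.36 points, was 2.57 at or above the median score, 3.75 with a score of at least 100, 3.76 with the flank from the nearest TSS and 9.57 in windows of 400 bp. The difference in nearest-gene promoter peaks, -15.7 points, was -19.8 at or above the median score, -11.7 with the flank from the nearest TSS and -12.0 with whole peaks outside. The neighbour difference, -1.21 points, was -5.63 at or above the median score and turned positive with whole peaks outside (4.01), beyond 1 kb (1.65) and with the TSSs of all transcripts (0.111). The CTCF difference, 0.0780 points, was 0.799 (0.0941 to 1.55) with the flank from the nearest TSS and turned negative at or above the median score (-1.08), with a score of at least 100 (-0.251), with whole peaks outside (-0.0639) and beyond 1 kb (-0.0435). The cause of these shifts was not tested. Higher scores also leave fewer peaks, and the part of that was not tested either. No paired analysis was possible because the series holds a single library of each kind.

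The limits are those of a single peak list. A gene flank without a member held no peak that passed the authors' threshold, and the absence of binding there was not shown. Read depth is unknown, so no value is weighted by it, and a wide peak is placed by 1 midpoint. Peaks called from 1 library share its background and its mapping, and the mapping of repeated sequence is not given in the sources used here.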
